A study of Mus musculus with 12 samples.

Results

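Expression of 9 genes outside the deleted interval was followed in the cerebral cortex of CD mice. These mice have lost 1 copy of the stretch of chromosome 5 bounded by Gtf2i and Fkbp6 and model the complete deletion of Williams–Beuren syndrome. These 9 genes, of 17202 in the table of normalized counts, were selected on the comparison of vehicle-treated CD with vehicle-treated wild-type mice, and each was tested among the 17111 genes whose normalized counts averaged 10 or more. Cortical RNA came from 12 mice in 4 groups of 3. VEH-WT and VEH-CD mice were wild-type and CD mice given vehicle, and VERCUR-WT and VERCUR-CD mice were their co-treated counterparts. VERCUR stands for verapamil, a blocker of L-type calcium channels, given in the drinking water together with curcumin, a phenol from turmeric. Per the labels, curcumin was dosed at 60 mg/kg/day and verapamil at 10 mg/kg/day from 8 weeks of age, for 1 month, and sacrifice was at 16 weeks. The study's methods give a lower dose of verapamil and an earlier age at sacrifice, and describe the control drink as water with DMSO, while the labels call the control mice untreated. All mice were males of a C57BL/6J background crossed to a Thy1-YFP line, and every CD mouse carries the same loss in all its tissues. What follows on VEH-CD against VEH-WT is a description, since that comparison chose the genes.

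The 9 genes come from unrelated families. Zfp189 is a zinc finger protein with a KRAB domain, a kind of DNA-binding protein that recruits the corepressor Trim28 and silencing enzymes. Tent5a is a noncanonical poly(A) polymerase, which adds adenosines to mRNA. Gpt2 is the mitochondrial alanine transaminase, which interconverts alanine and glutamate with their keto acids and so ties amino acids to the citric acid cycle. Cnnm4 belongs to a family of membrane proteins that move magnesium out of cells. Vasn, or vasorin, is a membrane glycoprotein that binds TGF-beta. Cdr2l is an antigen of the anti-Yo antibodies found in paraneoplastic cerebellar degeneration. Fam43a is a poorly characterised protein-coding gene. Gm4544 and B130046B21Rik are annotated as noncoding, the first as a long intergenic RNA and the second as an antisense RNA.

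The 9 genes lie on 7 chromosomes of GRCm38, none of them chromosome 5, by the GENCODE M21 annotation. They are Cnnm4 (chromosome 1, 36471620 to 36508764), Zfp189 (chromosome 4, 49521176 to 49531517), Gpt2 (chromosome 8, 85492576 to 85527560), Tent5a (chromosome 9, 85320439 to 85327348), Cdr2l (chromosome 11, 115381916 to 115396132), B130046B21Rik (chromosome 15, 98807024 to 98816077), Gm4544 (chromosome 15, 102657111 to 102660468), Vasn (chromosome 16, 4639941 to 4650802) and Fam43a (chromosome 16, 30599723 to 30602797). Tent5a is on the minus strand and the others on the plus strand. Fam43a has a single exon.

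Across the series, 40290000 to 56480000 reads were counted per mouse, and the normalized counts summed to 47430000 to 50770000. Over 22 genes of the deleted interval, the median ratio to the VEH-WT mean lay between 0.51 and 0.53 in the VEH-CD mice, between 0.466 and 0.503 in VERCUR-CD and between 0.955 and 1.04 in all WT mice, as the genotype labels give them. Log2 values of mice of one group had correlations across genes of 0.986 to 0.994. Markers of cortical neurons were high in each library, with sums over 8 genes between 373100 and 423700 normalized counts. None of the 9 marker lists of cell types or neighbouring tissues held a gene past the threshold in either genotype comparison, and in each list the summed levels of the VEH-WT and VEH-CD mice overlapped. Sums over 4 striatal markers ran from 5326 to 23780 in single mice, within as well as between groups. In whole tissue, fewer cells of a type and less RNA per cell cannot be told apart.

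Promoters were read from RefSeq (GRCm38.p6) as the 250 bases before and 50 bases after each start site, and 8 of the 9 genes had one, Cdr2l being the exception. Because CREB, which binds the cAMP response element (CRE), responds to calcium and neuronal activity, the CRE was searched for on both strands. The pair of promoters with this motif, whole (TGACGTCA) or in its shorter form (TGACG), is shown, with the motif in capitals.
Cnnm4 (chr1:36471347-36471646, plus strand): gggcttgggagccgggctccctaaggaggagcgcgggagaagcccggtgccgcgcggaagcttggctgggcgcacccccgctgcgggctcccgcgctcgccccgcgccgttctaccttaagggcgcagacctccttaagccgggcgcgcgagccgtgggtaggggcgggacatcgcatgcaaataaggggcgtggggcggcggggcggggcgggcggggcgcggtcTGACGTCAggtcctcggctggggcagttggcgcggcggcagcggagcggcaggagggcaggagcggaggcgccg
Zfp189 (chr4:49520926-49521225, plus strand): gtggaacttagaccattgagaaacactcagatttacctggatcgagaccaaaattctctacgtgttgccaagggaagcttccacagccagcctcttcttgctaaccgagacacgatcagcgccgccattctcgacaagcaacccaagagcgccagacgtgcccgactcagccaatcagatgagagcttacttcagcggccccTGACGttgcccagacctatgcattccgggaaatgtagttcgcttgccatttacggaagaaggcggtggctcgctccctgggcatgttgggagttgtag
The full CRE (TGACGTCA) was found in Cnnm4, its first base 24 bases before the start site, and in 1.79% of all 32851 promoters of this length. The shorter form, which the full motif also holds, was found in Cnnm4 and, 48 bases before the start site, in Zfp189, which makes 2 of 8 genes against 20.8% of all promoters. The AP-1 motif (TGANTCA, 7.81% of promoters) and the EGR1 motif (GCGTGGGCG, 0.612%) were in 0 of the 8. An E-box (CACGTG, 7.15%) was in B130046B21Rik alone. The letters of the TATA motif (TATAAA, 13.6%) were in Tent5a and Gm4544. Counted from the start site, they lay at position -178 or -204 in Tent5a, depending on the start site used. In Gm4544 they lay at position 37, after the start site and on the opposite strand. Whether these matches act as TATA boxes was not tested. Of the motifs found in any of the 8 promoters, the full CRE was the least common, and it is also the longest. The Cnnm4 promoter that holds it has 76.3% GC, beside a median of 52.7% over all promoters.

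In vehicle-treated mice the 7 protein-coding genes were lower in VEH-CD than in VEH-WT, with means from 0.503 (Zfp189) to 0.749 (Gpt2) of the VEH-WT mean, and both noncoding RNAs were higher, at 1.86 (Gm4544) and 1.45 (B130046B21Rik) times that mean. The 2 groups did not overlap in 9 of 9 genes. Since this comparison chose them, the share of all genes past its threshold, 44 of 17111 or 0.257%, is given for reference alone, as are the shares of genes whose groups did not overlap, 9.28% higher and 11.4% lower in VEH-CD. The threshold was an adjusted p under 0.05, from the linear models of limma, together with a fitted change of more than 25% in either direction. By adjusted p, Cnnm4 lay just inside it and Nr2f1 just outside, with 5477 ± 262 normalized counts in VEH-CD and 4039 ± 313 in VEH-WT (SD, n = 3 each, log2 fold change 0.44). By fold change Gpt2 lay just inside, with a fitted fold of 0.7497, and 0 genes passed the adjusted p without passing the fold.

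**Figure D1:**
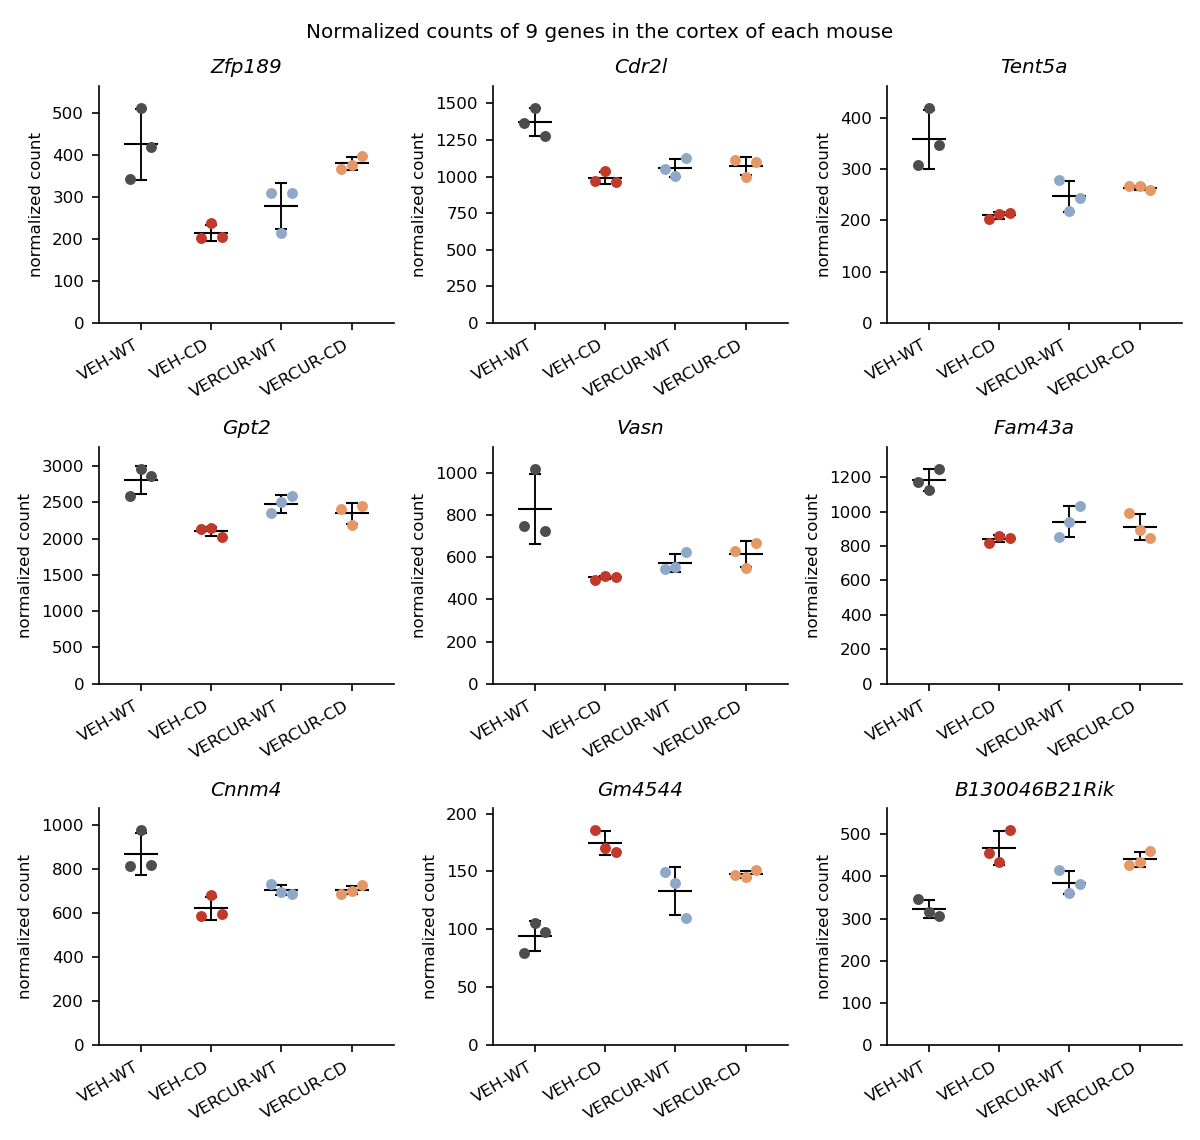
Normalized counts (vertical axis, from 0) of the 9 genes in each of the 12 mice, by group, with the mean and SD of 3 mice in black. The VEH-CD mice lie below the VEH-WT mice in 7 genes and above them in Gm4544 and B130046B21Rik, and in 7 genes the VERCUR-WT and VERCUR-CD mice overlap.

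Zfp189 had 343, 513 and 419 normalized counts in the 3 VEH-WT mice and 201, 237 and 204 in the VEH-CD mice, followed by 309.8, 215 and 308 in VERCUR-WT, and 366, 377 and 396.5 in VERCUR-CD. The 3 VEH-CD mice were all below the other groups except for 1 VERCUR-WT mouse, and the VERCUR-CD mice fell within the range of VEH-WT. The VEH-CD mean of 213.8 ± 19.8 compared with 424.9 ± 85.0 in VEH-WT (SD, n = 3 each), a log2 fold change of -0.97 with a standard error of 0.16. Tent5a had 307, 420.3 and 347 in VEH-WT, 202, 213 and 214 in VEH-CD, 279, 219 and 244 in VERCUR-WT, and 266, 266 and 259 in VERCUR-CD. All VEH-WT mice were above the other 9 mice, and the VEH-CD mice were the lowest. VEH-CD averaged 209.8 ± 6.62 and VEH-WT 358.1 ± 57.4 (SD, n = 3 each), a log2 fold change of -0.76 (standard error 0.12).

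Gpt2, which also per exon length had the highest level of the 9 genes, had 2588, 2965 and 2859 normalized counts in the VEH-WT mice, 2131, 2139.5 and 2027 in VEH-CD, 2348, 2498 and 2593 in VERCUR-WT, and 2414, 2180.8 and 2445 in VERCUR-CD. Its VERCUR-WT mice reached into the VEH-WT range, which they did in no other of the 7 protein-coding genes. Between the vehicle groups the fitted difference (CD minus WT) was -0.42 on the log2 scale (standard error 0.070), from 2099 ± 62.7 against 2804 ± 194 (SD, n = 3 each). Cnnm4 had 814, 980.3 and 817 in VEH-WT, 588, 683 and 594 in VEH-CD, 731, 694 and 687 in VERCUR-WT, and 688, 699.6 and 726 in VERCUR-CD. All VEH-WT mice lay above the other 9, and the 6 co-treated mice lay together between 687 and 731. The vehicle groups averaged 870.3 ± 95.2 in WT and 621.7 ± 52.8 in CD (SD, n = 3 each), or -0.48 on the log2 scale (standard error 0.088).

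Vasn had 745, 1019.5 and 722 normalized counts in the VEH-WT mice, 494, 512 and 504 in VEH-CD, 541, 552 and 622 in VERCUR-WT, and 631, 549 and 668 in VERCUR-CD. VEH-WT replicate 2 stood well above its group, and the 3 VEH-CD mice lay close together below every other mouse. Its VEH-CD mean, 503.3 ± 9.32, lay -0.70 from the VEH-WT mean, 829 ± 165, on the log2 scale (SD, n = 3 each, standard error of the difference 0.12). Cdr2l had 1367, 1472 and 1280.25 in VEH-WT, 971, 1037 and 959 in VEH-CD, 1049, 1003 and 1127 in VERCUR-WT, and 1115, 999 and 1098 in VERCUR-CD. Its VEH-WT mice lay above the other 9, while the other groups ran into each other. On the log2 scale VEH-CD differed from VEH-WT by -0.47 (standard error 0.076), with means of 989.1 ± 41.6 and 1373 ± 96.1 (SD, n = 3 each). Fam43a had 1170.2, 1127 and 1249.8 in VEH-WT, 819, 859 and 844.5 in VEH-CD, 849.9, 940.1 and 1029.8 in VERCUR-WT, and 990.3, 896 and 845 in VERCUR-CD. The order was the same, with VEH-WT alone at the top. VEH-CD and VEH-WT means of 841 ± 20.2 and 1182 ± 62.4 (SD, n = 3 each) gave a difference of -0.49 on the log2 scale (standard error 0.085).

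Gm4544 had 79.6, 105 and 97.3 normalized counts in the VEH-WT mice, 186, 170.4 and 166.5 in VEH-CD, 149.6, 139.9 and 109.5 in VERCUR-WT, and 147, 145 and 151 in VERCUR-CD. The VEH-WT mice were below all others and the VEH-CD mice above all others. VEH-CD averaged 174.4 ± 10.5 and VEH-WT 94.0 ± 13.1 (SD, n = 3 each), a log2 fold change of 0.89 (standard error 0.14). B130046B21Rik had 347, 316 and 305 in VEH-WT, 455, 434 and 511 in VEH-CD, 414, 361 and 381 in VERCUR-WT, and 428, 434 and 461 in VERCUR-CD. Both CD groups were above both WT groups. VEH-CD averaged 466.9 ± 39.9 and VEH-WT 323 ± 22.0 (SD, n = 3 each), which is 0.53 on the log2 scale (standard error 0.092).

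Divided by exon length, the VEH-WT levels ran in the order Gpt2 (497 normalized counts per kb of exon), Fam43a (384), Cdr2l (371), Vasn (276), Cnnm4 (180), Zfp189 (141), B130046B21Rik (137), Gm4544 (69.1) and Tent5a (62.8). Of neighbours in this order, the ranges over the 3 mice overlapped for Fam43a and Cdr2l, for Cnnm4 and Zfp189, for Zfp189 and B130046B21Rik, and for Gm4544 and Tent5a. The spread between mice was itself uneven. In 7 of 7 protein-coding genes the coefficient of variation was larger in VEH-WT (5.27% to 20%) than in VEH-CD (1.85% to 9.28%). Of the noncoding RNAs, Gm4544 had the same order (13.9% against 5.99%) and B130046B21Rik the opposite (6.8% against 8.55%). VEH-WT replicate 2 was the highest of its group in 6 of the 7 protein-coding genes. These mice chose the genes, and the share of all genes with this order is not given here, so these counts carry no test.

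The comparison of VERCUR-CD with VERCUR-WT asks whether the genotype difference was present in co-treated mice, with group means from libraries other than those of the vehicle comparison. The spread was estimated over all 12 mice, so its p values and intervals also drew on the vehicle libraries. In the co-treated mice 0 of the 9 genes passed the threshold, where 25 of all genes did (0.146%). The 9 genes were, however, among those past the threshold in VEH-CD against VEH-WT and not past it in VERCUR-CD against VEH-WT, so the VERCUR-CD mice may have been in view when they were chosen. In limma, with Benjamini-Hochberg adjustment over all genes tested, the adjusted p was 1 for each of the 9, and it was at least 0.567 under every alternative of the processing. Without adjustment, 1 of the 9 had a p under 0.05, beside 701 of 17111 genes (4.1%).

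Fitted differences between VERCUR-CD and VERCUR-WT were small in 6 of the protein-coding genes. In Cnnm4 the log2 fold change was 0.0017 (95% interval -0.19 to 0.19), in Cdr2l 0.015 (-0.15 to 0.18) and in Fam43a -0.045 (-0.23 to 0.14). In Gpt2 it was -0.080 (-0.23 to 0.071), in Tent5a 0.10 (-0.16 to 0.36) and in Vasn 0.10 (-0.16 to 0.37). The Tent5a value was 0.015 without VERCUR-WT replicate 2 and 0.19 without VERCUR-WT replicate 1. Over all 17111 genes, 0 passed an adjusted p of 0.05 in limma for an interaction of genotype and treatment, and 1035 had an unadjusted p under 0.05. The median over the 7 protein-coding genes was 0.015 in co-treated mice, beside 0.0044 over all genes tested. Zfp189 stood apart from them. Its 3 VERCUR-CD mice lay above its 3 VERCUR-WT mice, at 379.9 ± 15.3 against 277.5 ± 54.3 (SD, n = 3 each), which is the direction opposite to that in vehicle-treated mice. On the log2 scale this was 0.47 (95% interval 0.12 to 0.82), with a p of 0.0123 before adjustment and an adjusted p of 1 by limma. The Zfp189 value was 0.297 without VERCUR-WT replicate 2 and 0.56 without VERCUR-WT replicate 1.

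For Gm4544 the fitted log2 fold change of VERCUR-CD against VERCUR-WT was 0.16 (95% interval -0.15 to 0.47), with overlapping groups. The Gm4544 value was 0.028 without VERCUR-WT replicate 3 and 0.251 without VERCUR-WT replicate 1. For B130046B21Rik the fitted log2 fold change was 0.195 (-0.0054 to 0.40), and the groups did not overlap. Of all genes tested, 3.91% had co-treated groups that did not overlap with CD higher and 3.83% with CD lower, beside 2 of the 9 genes with CD higher (Zfp189 and B130046B21Rik) and 0 with CD lower.

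**Figure D2:**
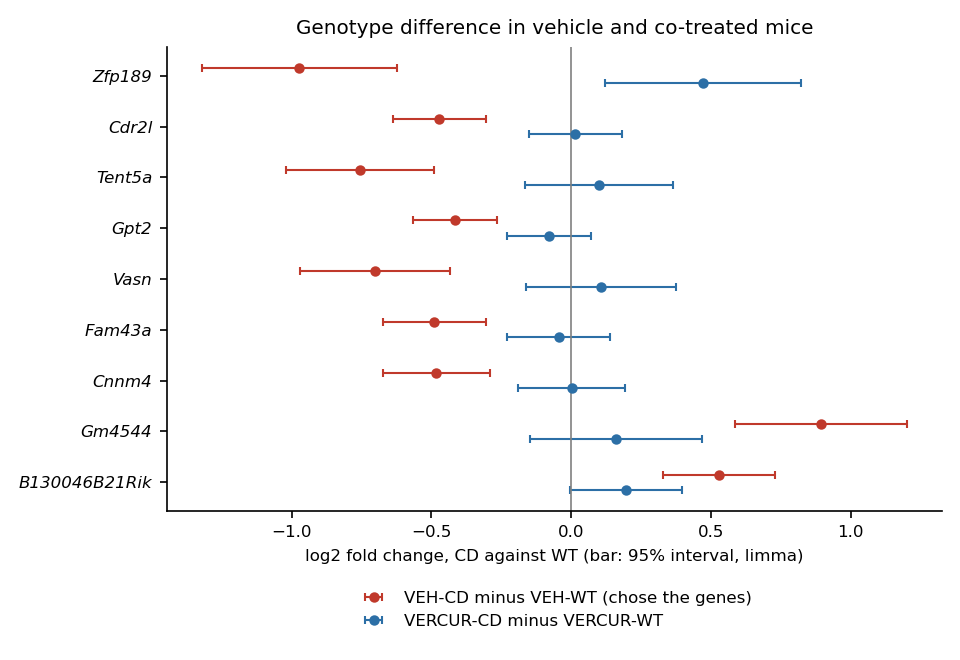
Log2 fold change of CD against WT (horizontal axis, limma) with its 95% interval for each of the 9 genes, in vehicle-treated mice, which chose the genes, and in co-treated mice. In co-treated mice the interval includes 0 in each gene but Zfp189, whose difference of 0.47 lies on the other side of 0 from its -0.97 in vehicle-treated mice.

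The remaining comparisons share libraries with the choice of genes and are given as values side by side. Against the same VEH-WT mice, VERCUR-WT mice were lower in 7 of 7 protein-coding genes by the fitted value, from -0.61 in Zfp189 to -0.18 in Gpt2 on the log2 scale, and without overlap in 6 of the 7, where 5.25% of all genes were lower in that way. They were higher in Gm4544 (0.49) and B130046B21Rik (0.255), without overlap in both, where 4.48% of all genes were. Against the VEH-CD mice, VERCUR-CD mice had higher fitted values in 7 of 7 protein-coding genes, from 0.11 in Fam43a and Cdr2l to 0.83 in Zfp189. They did not overlap in Zfp189, Tent5a, Gpt2, Vasn and Cnnm4, 5 genes, where 3.71% of all genes were higher in that way, and Gm4544 alone was lower without overlap (4.63% of all genes).

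In most of the 9 genes VERCUR-CD mice also lay apart from VEH-WT mice. Of the 9, 0 passed the threshold in VERCUR-CD against VEH-WT, where 34 of all genes did (0.199%). Of the 44 genes past it in VEH-CD against VEH-WT, 30 also passed here. The VERCUR-CD mice may have been in view when the 9 were chosen, so this 0 may be set by that choice. The groups still did not overlap in 8 of the 9, with 6 lower and 2 higher in VERCUR-CD. Of all genes, 7.33% were lower and 6.56% higher in that way, and these VEH-WT mice also chose the 9 genes. The exception was Zfp189, at 0.894 of the VEH-WT mean. The other 6 protein-coding genes had means from 0.737 (Tent5a) to 0.837 (Gpt2) of the VEH-WT mean, with log2 fold changes from -0.43 to -0.26, and Gm4544 and B130046B21Rik had 1.57 and 1.37 times that mean. In the same 6 protein-coding genes VERCUR-WT means ran from 0.69 (Tent5a and Vasn) to 0.884 (Gpt2) of the VEH-WT mean, a range that held that of VERCUR-CD. In Zfp189 the VERCUR-WT mean was 0.653 of the VEH-WT mean.

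In this way the 3 VEH-WT mice stood alone in most of the 9 genes. All 3 were above the other 9 mice in Cdr2l, Tent5a, Vasn, Fam43a and Cnnm4, as in 1.43% of all genes, and below them in Gm4544 and B130046B21Rik, as in 0.964%. In Zfp189 and Gpt2 they overlapped with a co-treated group. The choice of the genes used these VEH-WT mice, so these counts carry no test.

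A list of 13 immediate early genes, which neurons transcribe within minutes of activity, was compared with the 7 protein-coding genes mouse by mouse. In VEH-CD against VEH-WT, 13 of 13 had fitted values below 0 (median -1.10 on the log2 scale), from Egr2 (-2.37) to Btg2 (-0.60), but 0 passed the threshold (smallest adjusted p = 0.057 by limma), while 9 had an unadjusted p under 0.05. Their summed level was 73400 to 116800 normalized counts in the VEH-WT mice, 25410 to 50580 in VEH-CD, 41300 to 68140 in VERCUR-WT and 44430 to 62880 in VERCUR-CD. As in 5 of the 7 protein-coding genes, the VEH-WT mice were thus above the other 9. Within groups, VEH-WT replicate 2 had the highest sum of its group, and so did VEH-CD replicate 2, the highest VEH-CD mouse in 6 of the 7 genes. In the co-treated groups the order of mice was mixed. In VERCUR-WT, replicate 2 had the lowest sum and was the lowest in 3 of the 7 genes, as was replicate 1. In VERCUR-CD, replicate 1 had the highest sum and the lowest Zfp189, while replicate 3 was the highest in 4 of the 7. In VERCUR-CD against VERCUR-WT, the 13 genes had a median of 0.049, with 8 above and 5 below 0. The part of neuronal activity in the differences of the 9 genes was not tested.

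**Figure D3:**
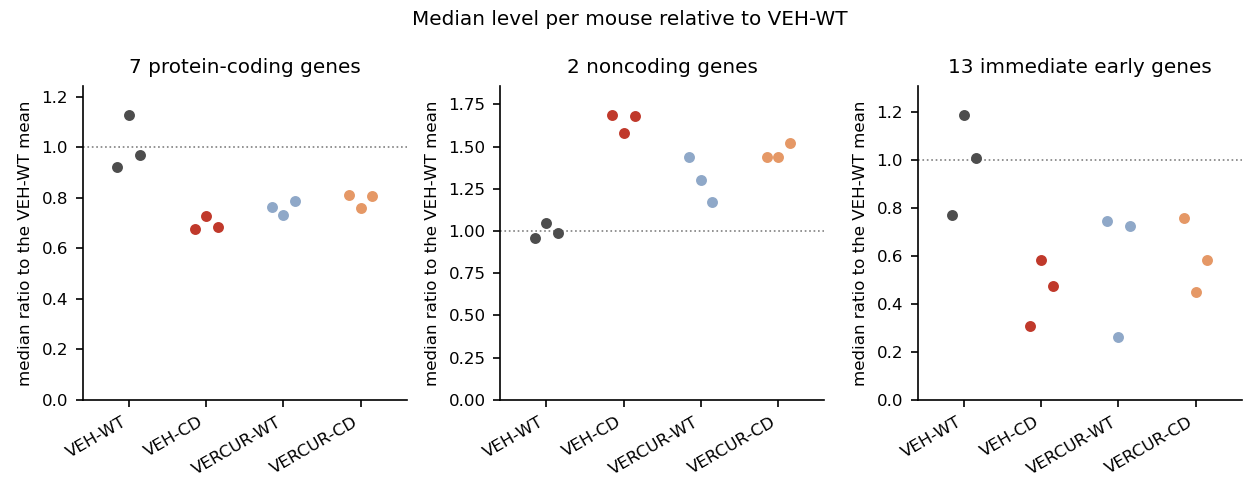
Median ratio to the VEH-WT mean (vertical axis, from 0) in each mouse, over the 7 protein-coding genes, the 2 noncoding genes and 13 immediate early genes, with 1 point per mouse and a dotted line at 1. The 7 genes lie between 0.923 and 1.13 in VEH-WT and between 0.676 and 0.812 in the other 9 mice, and the immediate early genes lie at 0.772 to 1.19 in VEH-WT and at 0.26 to 0.758 in the others.

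Around the 9 genes, the other members of their families and pathways did not pass the threshold. Of 97 genes listed, 94 were tested, leaving out Tent5b, Tent5d and Ptp4a1, the last a symbol listed for 2 genes, and 0 passed in VEH-CD against VEH-WT or in VERCUR-CD against VERCUR-WT, by limma, where 0.257% and 0.146% of all genes did. An unadjusted p under 0.05 was reached by 17 of the 94 in vehicle mice, 9 of them immediate early genes, and by 2 in co-treated mice. In vehicle mice 2020 of all 17111 genes reached it. The values that follow are fitted log2 fold changes between the vehicle groups. All genes of a list were measured in the same mice, so counts of genes above or below 0 carry no test. Of 7 tested relatives of the 9 genes, 5 were below 0, from Fam43b, the relative of Fam43a (-0.40, 1615 ± 238 against 2139 ± 364 normalized counts, SD, n = 3 each), to Gpt, the cytosolic counterpart of Gpt2 (0.045). The median over these relatives was -0.050, beside -0.0028 over all genes.

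For Zfp189, the 8 genes of the KRAB corepressor complex divided evenly, 4 above and 4 below 0, from Setdb1, a histone H3 lysine methyltransferase (-0.145), to Trim28 (0.046). For Tent5a, 12 of 16 genes that add or remove poly(A) tails were below 0, from Tent4a (-0.22) to the deadenylase Parn (0.125). In the co-treated mice 14 of these 16 were above 0, with a median of 0.057. For Gpt2, 7 of 12 genes of alanine and glutamate metabolism were below 0, from the aspartate-glutamate carrier Slc25a13 (-0.39) to the pyruvate carrier subunit Mpc1 (0.050). For Cnnm4, 11 of 16 genes of magnesium transport were below 0, from Slc41a1 (-0.26) to Slc41a3 (0.12), both magnesium carriers.

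For Vasn, 16 of 18 TGF-beta ligands, receptors, SMADs and regulators were below 0, with a median of -0.090. They ran from the inhibitory Smad7 (-0.39, 1366 ± 110 against 1788 ± 69.1 normalized counts, SD, n = 3 each, the smallest adjusted p of the list at 0.125 by limma) to the receptor Tgfbr2 (0.12). Of 8 genes of CREB and its coactivators 7 were below 0, from Crem (-0.285) to Crtc1 (0.052). Among co-treated mice the same lists had medians of 0.017 and 0.023, with 10 of 18 and 5 of 8 above 0.

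B130046B21Rik lies opposite Ddn and Prkag1, and its exons share 177 bases with exons of Ddn and 950 with those of Prkag1. How the counting treated strand is not given in the sources used here, so reads of these stretches cannot be told apart. Ddn, which encodes dendrin, a protein of dendrites and the synapse, was described because of this overlap. It had 69821, 65036 and 72320.02 normalized counts in the VEH-WT mice, 95577, 88033 and 93984 in VEH-CD, 84661, 77463 and 72086 in VERCUR-WT, and 91844, 100813 and 100598 in VERCUR-CD. Both CD groups were above both WT groups, as for B130046B21Rik. Ddn passed the threshold in VEH-CD against VEH-WT (log2 fold change 0.42, standard error 0.070, adjusted p = 0.0257 by limma) and not in VERCUR-CD against VERCUR-WT (0.33, adjusted p = 0.185 by limma). B130046B21Rik amounted to 0.422% to 0.498% of Ddn in VEH-WT, 0.476% to 0.544% in VEH-CD, 0.466% to 0.529% in VERCUR-WT and 0.431% to 0.465% in VERCUR-CD. These ranges overlapped between genotypes in vehicle mice, while in co-treated mice the CD range lay just below the WT range. Prkag1, an AMP-activated kinase subunit, had a log2 fold change of 0.014 in the vehicle mice (adjusted p = 0.947 by limma).

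**Figure D4:**
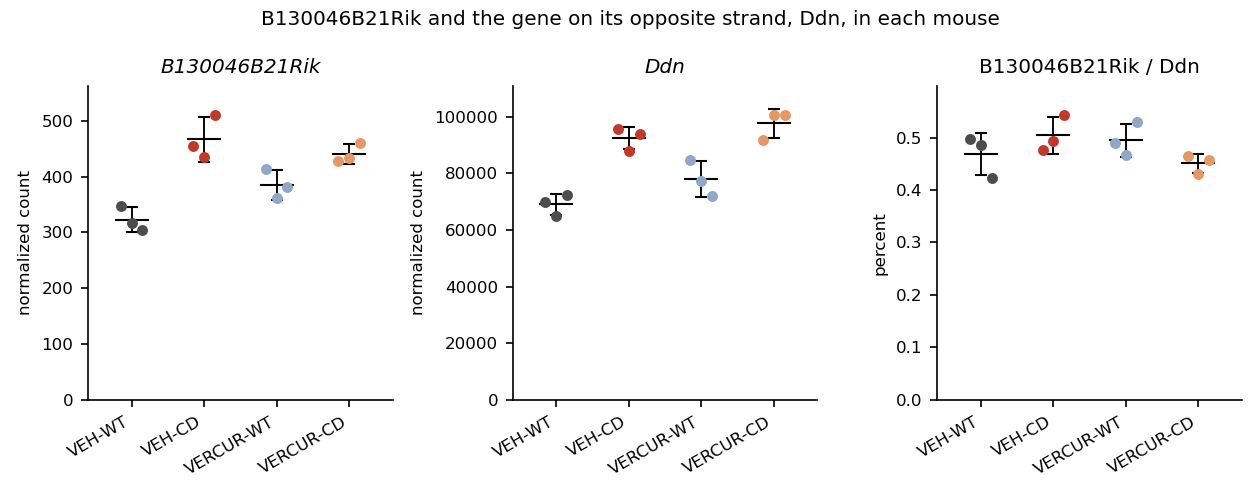
Normalized counts (vertical axes, from 0) of B130046B21Rik and of Ddn on the opposite strand, and the first as a percentage of the second, in each mouse, with the mean and SD of 3 mice in black. Both genes are higher in the CD groups, and the percentage stays between 0.422% and 0.544% in all 12 mice.

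Of the other genes, Vasn lies within Coro7, on the opposite strand and without shared exon bases, and shares 160 exon bases with Dnaja3. Their log2 fold changes in vehicle mice were -0.0018 and 0.030 (adjusted p = 0.994 and 0.846 by limma), beside -0.70 in Vasn. Zfp189 starts 82 bases from Mrpl50, which is transcribed the other way and had a log2 fold change of 0.057 (adjusted p = 0.72 by limma). The low Vasn and Zfp189 counts of the VEH-CD mice were therefore not accompanied by low counts of these neighbours.

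For each of the 9 genes, the gene with the most similar profile was taken as the one with the smallest root mean square difference of centred log2 values over the 12 mice, which share the libraries and their normalization. It was Glra1 for Zfp189 (0.196), Fhdc1 for Cdr2l (0.072), Vasn for Tent5a (0.126), Rrp8 for Gpt2 (0.062), Stk40 for Vasn (0.078), Gpat3 for Fam43a (0.091), Slc38a9 for Cnnm4 (0.070), Tnfrsf14 for Gm4544 (0.174) and Lemd1 for B130046B21Rik (0.083). Only Tent5a thus had another of the 9 as its nearest, but in most of the others few genes lay nearer than the closest of the 9. The vehicle mice that chose the 9 genes are among these 12, so likeness among the 9 carries no test. Such nearer genes numbered 3 for Zfp189, Cdr2l and Fam43a, 4 for Vasn, 8 for Cnnm4 and 9 for Gm4544. They numbered 38 for Gpt2 and 2691 for B130046B21Rik. Glra1, a glycine receptor subunit at a low level, had 24.7 ± 0.48 normalized counts in VEH-WT mice, and then 21.9 ± 2.7 in VERCUR-CD, 17.3 ± 2.9 in VERCUR-WT and 14.4 ± 2.7 in VEH-CD (SD, n = 3 each), the order of groups seen in Zfp189. Stk40, a serine/threonine kinase, had 2344 ± 556, 1841 ± 216, 1726 ± 77.3 and 1585 ± 123 in the groups taken in that order (SD, n = 3 each), the order seen in Vasn. Both were picked for likeness over these same 12 mice, so a shared order of groups carries no test.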

How the data were processed

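Cortical mRNA of 12 mice was sequenced as paired-end reads. The authors used STAR 2.5.3a and GRCm38 for mapping and deposited normalized counts, that is, reads counted on each gene after division by a factor of the sample. The counting program, its strand setting and the normalization are not given in the sources used here. Low values were whole multiples of 1 step per sample, which gave the reads counted. Other deposited values, relative to wild type and with single mice left out, were not used.

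Groups came from the labels. Models of limma 3.58.1 (R 4.3.3) took log2(normalized count + 1), a scale that understates changes of low genes, with 4 group means, all 12 samples and an intensity trend, over 17111 genes. P values were two-sided and adjusted (Benjamini-Hochberg) over all genes tested. The labels number the replicates without further detail, so each sample was taken as 1 mouse. A p value sets a group difference against the spread between samples, estimated over all 12 samples. The 9 genes and all lists were chosen with earlier results of these data known. Named besides the 9 genes were the highest and lowest of each list in VEH-CD against VEH-WT and the gene of nearest profile, and, outside this rule, neighbours by position, genes at the threshold and Ddn. Alternatives were pseudocounts of 0.1 and 5, no filter or a mean of 50, quantile or median scaling, only the 6 mice compared, no trend, a replicate block and leaving out each mouse.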

Additional observations from a re-analysis of the deposited data

Results flagged for a closer look

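Zfp189 is listed because its genotype difference had opposite directions in the 2 treatments. The log2 fold change was -0.97 in VEH-CD against VEH-WT, with all 3 VEH-CD mice below all 3 VEH-WT mice, and 0.47 in VERCUR-CD against VERCUR-WT, with all 3 VERCUR-CD mice above all 3 VERCUR-WT mice. The vehicle comparison chose the gene, so the difference between the treatments was not tested on libraries independent of that choice. Over all 17111 genes, 0 passed an adjusted p of 0.05 for an interaction of genotype and treatment in limma, and 1035 had an unadjusted p under 0.05.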

How the results depend on the processing

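In VERCUR-CD against VERCUR-WT, 0 of the 9 genes and 0 pathway genes passed under each of 9 other settings and 12 fits without 1 mouse, and the count over all genes stayed between 22 and 30. The log2 fold change of Zfp189 there ran from 0.297 to 0.56 without single mice, that of Tent5a from 0.015 to 0.19, Gpt2 from -0.12 to -0.028, Vasn from 0.044 to 0.186, Gm4544 from 0.028 to 0.25 and B130046B21Rik from 0.149 to 0.248, none of them past the threshold. Values near 0 changed sign. With quantile normalization Cnnm4 was at -0.0069. Without single mice Cdr2l ran from -0.024 to 0.064, Fam43a from -0.115 to 0.023 and Cnnm4 from -0.020 to 0.030. In VEH-CD against VEH-WT all 9 genes kept their direction. Without 1 mouse this could not be otherwise, since the groups that chose the genes did not overlap. Some values fell short of the fold limit. Gpt2 was at -0.37 with quantile normalization and at -0.414 with median centring. It was at -0.374 without VEH-WT 2, at -0.4 without VEH-WT 3 and at -0.391 without VEH-CD 3. Cnnm4 was at -0.394 without VEH-WT 2. In the vehicle comparison the count over all genes, 44, was 30 to 45 under other settings and 24 to 71 without 1 mouse. Leaving out VERCUR-CD 2 gave 71, leaving out VEH-WT 3 gave 28, and leaving out any of VEH-WT 2, VEH-CD 1 and VEH-CD 3 gave 24. Pathway genes numbered 0 to 2 without 1 mouse (2 without VEH-WT 1, VEH-CD 2 or VERCUR-CD 2 and 1 without VERCUR-WT 2). The cause was not tested. With the replicate block 1 pathway gene passed in vehicle mice, against 0, and deviations of same-numbered mice had correlations of -0.032 to 0.22 there and -0.35 to -0.14 in co-treated mice, so the numbers were not taken to pair mice. Count-based tests on recovered reads were planned and not run. With 3 mice a group, differences smaller than the reach of the 95% intervals were not detectable. The adjustment over all genes made the threshold stricter still. Zfp189 in co-treated mice, with a 95% interval of 0.12 to 0.82, did not pass it.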
